A study of Rattus norvegicus with 21 samples.

Results

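The chemokine ligand genes described here, across cultured and freshly isolated rat astrocytes, are the 8 genes Ccl2, Ccl7, Ccl20, Cxcl1, Cxcl2, Cxcl10, Cxcl12 and Cx3cl1. They were chosen by name, and each was read through every probe set whose only gene symbol was that gene. This gave 10 probe sets of the 31042 on the array, for 8 of the 14217 genes that had a probe set of their own. Cxcl12 had 3 probe sets (1369633_at, 1388583_at and 1387655_at). The others had 1 each: 1367973_at for Ccl2, 1379935_at for Ccl7, 1369814_at for Ccl20, 1387316_at for Cxcl1, 1368760_at for Cxcl2, 1387969_at for Cxcl10 and 1368200_at for Cx3cl1. For Cxcl12 the first of its 3, with the highest mean over all 21 arrays, led, and values are of that probe set unless another is named. All values are log2 of the deposited intensity, so a difference of 1 is 2-fold. The median of all log2 values was 7.11.

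Forebrain astrocytes of Sprague Dawley rats were measured on Affymetrix rat genome arrays in 7 groups of 3 biological replicates. Immunopanning with an antibody to ITGB5, an integrin, gave the panned cells, whose RNA was taken directly at postnatal day 1 (fresh P1) or postnatal day 7 (fresh P7). Panned cells of both ages were also cultured without serum for 7 days in HBEGF, a ligand of the EGF receptor, at 5 ng/ml (HBEGF P1 and HBEGF P7 cultures). Serum P7 cultures were panned P7 cells held for 7 days in medium with 10% foetal calf serum. Withdrawn P7 cultures had the same 7 days in serum, were then washed, and had 7 further days in HBEGF. MD cultures, the McCarthy and de Vellis preparation of P1 forebrain, were harvested after 7 days in 10% serum. MD cultures therefore differed from the panned serum cultures in age and preparation, and from the HBEGF P1 cultures in preparation and medium. The withdrawn P7 cultures spent 7 days longer in culture than the other cultures. One label of the HBEGF P7 arrays reads p1 where title and source name read P7, and they were taken as P7.

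Chemokines are small secreted proteins that draw leukocytes along a gradient through G protein-coupled receptors. Ccl2 and Ccl7 act on monocytes through Ccr2, Ccl20 on lymphocytes and dendritic cells through Ccr6, Cxcl1 and Cxcl2 on neutrophils through Cxcr2, and Cxcl10 on T cells through Cxcr3. Many of these genes are induced through NF-kB in inflamed tissue, Cxcl10 also by interferon. Cxcl12 is different in kind, a largely constitutive ligand of Cxcr4 and Ackr3 that guides neuronal precursors in the developing brain, and Cx3cl1 (fractalkine) is a membrane-tethered ligand of the microglial receptor Cx3cr1 that ADAM proteases can release.

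The arrays of a group ranked the probe sets alike, with Spearman correlations between 0.963 and 0.994. The astrocyte marker Gfap averaged between 12.50 in the fresh P1 cells and 14.69 in the serum P7 cultures. Aldh1l1 was lowest in the MD cultures, at 8.65 ± 0.21 (mean ± SD, n = 3). Markers of other cells differed between groups. The summed intensity of 18 microglia and macrophage markers lay between 1014 and 2363 in the fresh P1 cells and the HBEGF P1, MD and serum P7 cultures. It was 2531 to 5514 in the fresh P7 cells, 1170 to 7009 in the HBEGF P7 cultures and 8240 to 30778 in the withdrawn P7 cultures. HBEGF P7 replicate 3 stood apart from its group, with a mean microglia marker level of 7.90 against 6.09 and 5.78. HBEGF P7 replicate 2 stood apart on the fibroblast and meningeal markers, at 9.26 against 11.07 and 11.36, and was the lowest array of its group for Ccl2, Ccl7, Ccl20, Cxcl1, Cxcl10 and Cxcl12. C1qa, a microglial complement gene, averaged 10.13 in the withdrawn P7 cultures and 5.98 in the serum P7 cultures, while Aif1 stayed between 5.76 and 6.09 in all groups. The 12 fibroblast and meningeal markers summed to 76191 to 126524 in the serum P7 and 80873 to 120074 in the withdrawn P7 cultures, and to 13859.6 to 17801 in the MD cultures. Serum P7 replicate 3 was the highest of its group on that list, at a mean of 12.85 against 11.18 and 11.66. Where a chemokine moves with these lists, their part in the result was not tested. In bulk RNA, fewer cells of a type and less RNA per cell cannot be told apart.

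The promoters of the members are shown first, and the part of their sequence in the levels was not tested. RefSeq's table for the GRCr8 build held 7 of the 8 promoters, with no entry for Ccl2. The 250 bases before the transcription start were searched on both strands for the kappa B consensus of NF-kB, for the interferon-stimulated response element GAAANNGAAA and for the AP-1 site TGANTCA. A kappa B match stood before 5 of the 7 (Ccl7, Ccl20, Cxcl1, Cxcl2 and Cxcl10), against 6.33% of the 33469 promoters in the table. The 4 shown are from genes of the 2 neighbouring pairs and from the 1 member with an interferon element. All are 5′ to 3′ on the gene's strand, with matches in capitals.
Cxcl1 (chr14:17479322-17479571, minus strand): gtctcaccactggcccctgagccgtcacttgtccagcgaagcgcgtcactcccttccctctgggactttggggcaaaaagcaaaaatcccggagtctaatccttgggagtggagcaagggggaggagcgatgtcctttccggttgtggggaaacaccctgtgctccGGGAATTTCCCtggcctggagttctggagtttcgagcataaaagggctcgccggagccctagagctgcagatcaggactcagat
Cxcl2 (chr14:17467256-17467505, minus strand): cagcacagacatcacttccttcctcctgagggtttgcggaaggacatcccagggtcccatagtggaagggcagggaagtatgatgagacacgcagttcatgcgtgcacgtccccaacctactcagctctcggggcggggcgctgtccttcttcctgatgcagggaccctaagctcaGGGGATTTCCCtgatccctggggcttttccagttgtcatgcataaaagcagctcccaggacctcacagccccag
Cxcl10 (chr14:15988816-15989065, plus strand): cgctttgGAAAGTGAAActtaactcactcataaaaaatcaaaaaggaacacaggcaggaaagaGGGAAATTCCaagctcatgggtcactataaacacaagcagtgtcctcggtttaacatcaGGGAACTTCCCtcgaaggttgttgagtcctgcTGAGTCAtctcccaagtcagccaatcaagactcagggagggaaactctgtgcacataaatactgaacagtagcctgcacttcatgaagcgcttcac
Ccl7 (chr10:67513845-67514094, plus strand): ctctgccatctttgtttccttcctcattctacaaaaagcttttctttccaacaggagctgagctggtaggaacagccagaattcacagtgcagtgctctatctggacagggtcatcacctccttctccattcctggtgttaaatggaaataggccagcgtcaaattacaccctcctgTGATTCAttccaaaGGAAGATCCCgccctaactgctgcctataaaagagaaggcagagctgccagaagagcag
Cxcl1 held overlapping kappa B matches on the opposite strands, 84 to 74 bases before the start, and Cxcl2 held overlapping matches 74 to 64 bases before the start. Cxcl10 held kappa B matches in 2 separate places, an interferon element 243 to 234 bases before the start, and an AP-1 match. Ccl7 held a kappa B match 59 to 50 bases before the start and an AP-1 match. The interferon element was found in 3.41% and the AP-1 match in 6.34% of all the promoters. No match of these 3 kinds was found in the windows of Cxcl12 and Cx3cl1. In the GRCr8 annotation Ccl2 and Ccl7 are neighbours on chromosome 10, Cxcl1 and Cxcl2 are neighbours on chromosome 14, and Cxcl10 lies between Cxcl11 and Cxcl9.

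**Figure D1:**
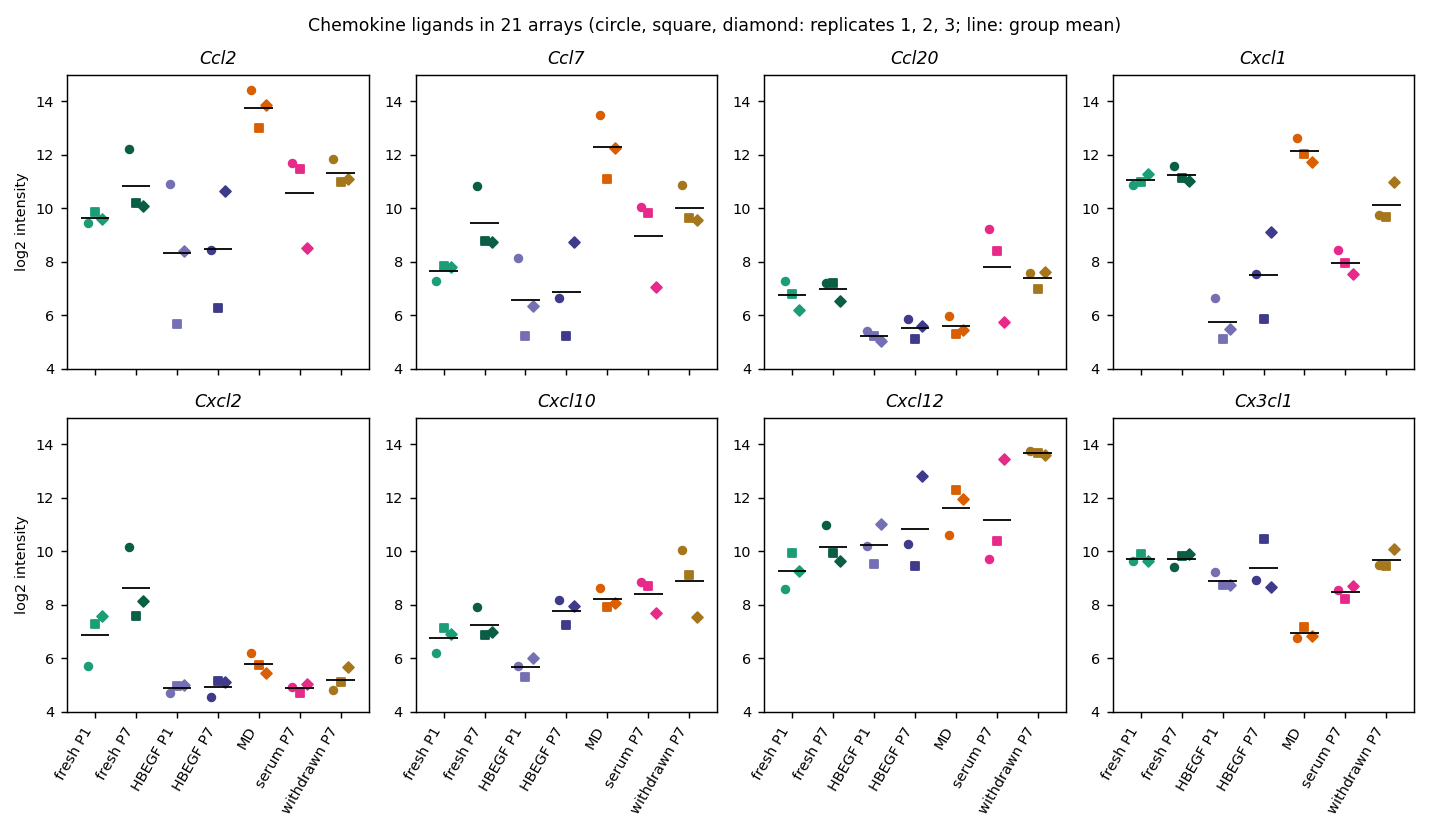
Log2 intensity of the 8 chemokine ligands on every array, 1 panel per gene, with the 7 groups along the x axis, a point per array (circle, square and diamond for replicates 1, 2 and 3) and a line at each group mean. Cxcl1 lies between 10.89 and 12.64 in the fresh cells and MD cultures and between 5.10 and 9.11 in the HBEGF cultures. The 3 withdrawn P7 arrays of Cxcl12 lie between 13.59 and 13.74.

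Group means were compared with limma in 12 comparisons and 2 differences of differences. A change was called where the Benjamini-Hochberg adjusted p over all probe sets was under 0.05 and the log2 change was 1 or more in size. Adjusted p values below are of that fit, and ± gives the SE of a change. With 3 arrays per group an exact two-sided permutation test cannot go below 0.1. Several comparisons share arrays (the HBEGF P7 cultures enter 4 of the 12, for example), so their calls are not independent. Beside each count of members stands the percentage of all 14217 genes called in that comparison, in either direction. Between fresh P7 and fresh P1 cells limma called 0 of 8 members (1.55% of genes called), with Cxcl2 the 1 member at an unadjusted p under 0.05. Cxcl1 and Cxcl2 were lower in the HBEGF cultures than in the fresh cells at both ages, which made 2 of 8 members at P1 (8.87% of genes called) and 2 of 8 at P7 (10.3% of genes called). The responses to HBEGF culture at the 2 ages were called different by limma for 0 of 8 members (0.816% of genes called), with Cxcl2 and Cxcl10, 2 members, at an unadjusted p under 0.05.

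Between MD and fresh P1 cells 5 of 8 members differed (19.6% of genes called), with Ccl2, Ccl7, Cxcl10 and Cxcl12 higher and Cx3cl1 lower. Without MD replicate 3 the count was 3. Another 5 of 8 differed between MD and HBEGF P1 cultures (18.4% of genes called), with Ccl2, Ccl7, Cxcl1 and Cxcl10 higher and Cx3cl1 lower. In panned P7 cells 1 member, Ccl20, was higher in serum than in HBEGF (9.3% of genes called). Leaving out serum P7 replicate 1 left 0 members called there, leaving out HBEGF P7 replicate 3 gave 3, and leaving out serum P7 replicate 3 gave 2. Serum P7 cultures against fresh P7 cells had 3 members lower, Cxcl1, Cxcl2 and Cx3cl1 (18.2% of genes called), and 5 called without serum P7 replicate 3. Between the serum P7 and MD cultures 4 of 8 members differed (13.9% of genes called), with Ccl7 and Cxcl1 lower and Ccl20 and Cx3cl1 higher in the serum P7 cultures. The serum difference of the panned P7 cells differed from the MD difference for Cxcl1 alone among the 8 (11.3% of genes called). This last count was 2 without HBEGF P1 replicate 1 (Ccl7 added) or serum P7 replicate 3 (Ccl20 added), and 3 without HBEGF P7 replicate 2 (Ccl7 and Cx3cl1 added).

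After serum was withdrawn, Cxcl1 and Cx3cl1 were higher than in the serum P7 cultures, 2 of 8 members against 4.5% of genes called. Against the HBEGF P7 cultures 4 members were higher, Ccl7, Ccl20, Cxcl1 and Cxcl12 (11.7% of genes called). Against fresh P7 cells Cxcl10 and Cxcl12 were higher and Cxcl2 lower (22.1% of genes called). Cxcl10 alone of the 8 differed between HBEGF P7 and HBEGF P1 cultures (1.11% of genes called). The median change of the members was -1.20 from fresh P1 cells to HBEGF P1 cultures (0.03 for all genes), -1.91 from fresh P7 cells to HBEGF P7 cultures (0.07 for all genes), 1.95 from HBEGF P1 to MD cultures (0.09 for all genes), and 2.25 from HBEGF P7 to withdrawn P7 cultures (0.01 for all genes). In the other comparisons of 2 groups it lay between -0.67 (serum P7 against MD) and 1.27 (MD against fresh P1). Counts with few calls were sensitive to single arrays. The withdrawn against serum count was 0 without any 1 of serum P7 replicates 1 and 2 or withdrawn P7 replicates 1 to 3. The withdrawn against HBEGF P7 count was 1 without HBEGF P7 replicate 2 or withdrawn P7 replicate 1, and 2 without HBEGF P7 replicate 1.

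**Figure D2:**
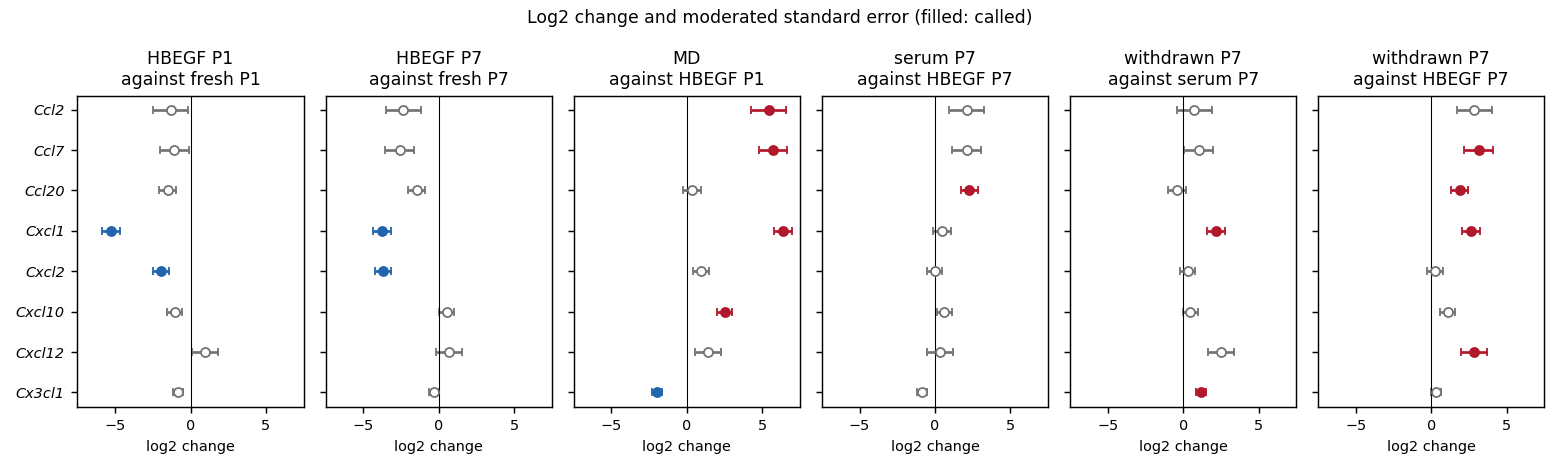
Log2 change (x axis) of each chemokine ligand (y axis) in 6 of the 12 comparisons, 1 panel each, with bars for the moderated SE, filled points for called changes (red higher, blue lower) and open grey points for the others. Cxcl1 runs from -5.29 (HBEGF P1 against fresh P1) to 6.37 (MD against HBEGF P1), and Cx3cl1 is the 1 member called lower in the MD panel.

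Ccl2, the main monocyte attractant of the group, was highest in the MD cultures. On replicates 1 to 3 it read 14.42, 13.01 and 13.85 in the MD cultures, 9.46, 9.88 and 9.60 in the fresh P1 cells, and 12.20, 10.18 and 10.09 in the fresh P7 cells. All MD arrays lay above every array of the other groups. The HBEGF cultures were scattered, at 10.91, 5.68 and 8.42 for P1 and 8.46, 6.29 and 10.65 for P7, a SD of 2.62 and 2.18 where the median gene had 0.16 and 0.23. Serum P7 cultures read 11.71, 11.48 and 8.51, and withdrawn P7 cultures 11.85, 10.999 and 11.08. Serum replicates 1 and 2 were near the withdrawn arrays, and replicate 3, the array with the most fibroblast and meningeal signal of its group, was far below them. Ccl2 was 4.11 ± 1.16 higher in MD than in fresh P1 cells (adjusted p = 0.00974) and 5.42 ± 1.16 higher than in HBEGF P1 cultures (adjusted p = 0.00137). In the order of group means MD came first, then withdrawn P7, fresh P7, serum P7, fresh P1, HBEGF P7 and HBEGF P1. Of these neighbours the arrays overlapped everywhere except between MD and withdrawn P7. Between serum P7 and HBEGF P7 the change was 2.10 ± 1.16 (adjusted p = 0.219), and between serum P7 and MD -3.19 ± 1.16 (adjusted p = 0.0516). The latter was called without serum P7 replicate 1 (-3.77, adjusted p = 0.0462) and under 6 of the 8 other alternatives, with adjusted p from 0.0308 to 0.0486 in those 6. Without serum P7 replicate 3 it was -2.16 and not called. The change from HBEGF P7 to withdrawn P7 cultures was 2.84 ± 1.16 (adjusted p = 0.0834), and 3.93 without HBEGF P7 replicate 3 (adjusted p = 0.0228). Without HBEGF P7 replicate 2 it was 1.76 (adjusted p = 0.32).

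Ccl7, another ligand of Ccr2 encoded next to Ccl2, followed it array by array. It read 13.47, 11.10 and 12.27 in the MD cultures, 7.30, 7.86 and 7.81 in the fresh P1 cells and 10.82, 8.77 and 8.75 in the fresh P7 cells. The MD arrays were again above all others. HBEGF P1 cultures read 8.14, 5.23 and 6.34, and HBEGF P7 cultures 6.64, 5.23 and 8.75. Serum P7 cultures read 10.06, 9.83 and 7.06, and withdrawn P7 cultures 10.86, 9.64 and 9.55. The highest array of each group was the same for Ccl2 and Ccl7 in 7 of 7 groups, and the full order of the arrays in 6 of 7. Their group means, each centred on its own mean, differed by a root mean square of 0.22, the least of all pairs of members, with Cxcl12 and Cxcl10 next at 0.82. Whether the probes of the 2 genes cross-hybridise was not tested. Ccl7 was 4.62 ± 0.96 higher in MD than in fresh P1 cells (adjusted p = 0.00098) and 5.71 ± 0.96 higher than in HBEGF P1 cultures (adjusted p = 0.000162). It was lower in serum P7 than in MD cultures (-3.30 ± 0.96, adjusted p = 0.0165). That call was lost without MD replicate 1 (-2.70, adjusted p = 0.0836) or serum P7 replicate 3 (-2.34, adjusted p = 0.101). It was 3.14 ± 0.96 higher in withdrawn P7 than in HBEGF P7 cultures (adjusted p = 0.0243). That call was lost without HBEGF P7 replicate 1 (3.03, adjusted p = 0.0646), HBEGF P7 replicate 2 (2.32, adjusted p = 0.119) or withdrawn P7 replicate 1 (2.72, adjusted p = 0.0862). Conversely Ccl7 was called lower in HBEGF P7 cultures than in fresh P7 cells without HBEGF P7 replicate 3 (-3.51, adjusted p = 0.0163), and higher in serum P7 than in HBEGF P7 cultures without HBEGF P7 replicate 3 (3.05, adjusted p = 0.0332) or serum P7 replicate 3 (3.07, adjusted p = 0.0378). In all arrays these last changes were -2.57 ± 0.96 (adjusted p = 0.0633) and 2.11 ± 0.96 (adjusted p = 0.131). Without HBEGF P7 replicate 2 they were -1.75 and 1.29, neither called.

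**Figure D3:**
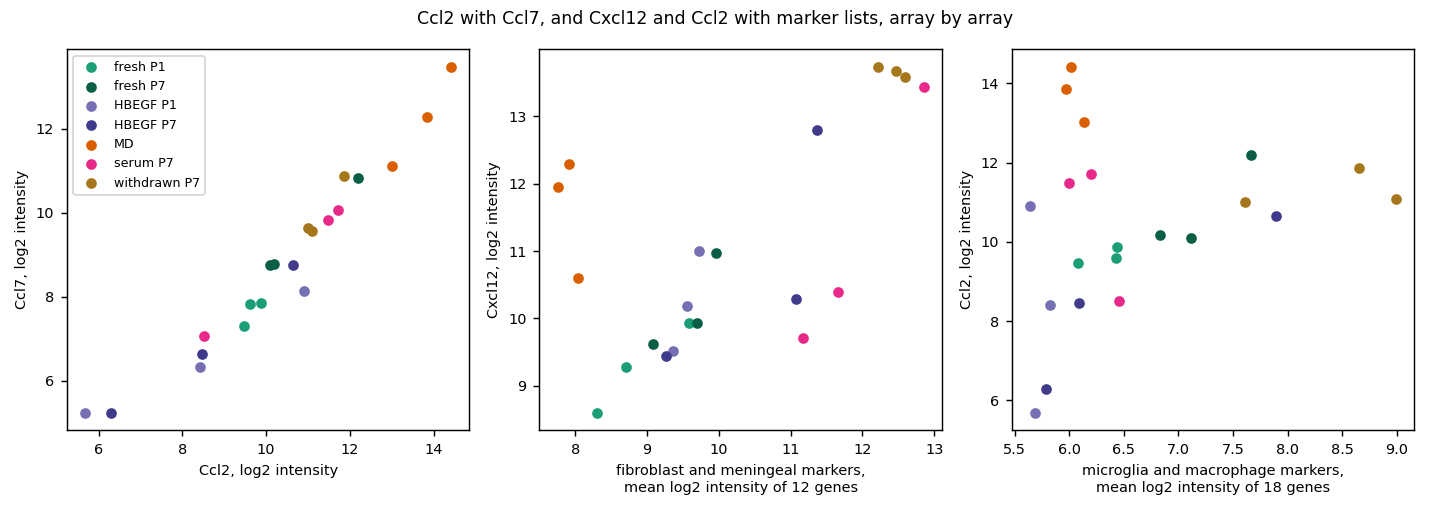
Log2 intensity of Ccl7 against that of Ccl2 (left), of Cxcl12 against the mean log2 intensity of 12 fibroblast and meningeal markers (middle) and of Ccl2 against that of 18 microglia and macrophage markers (right), with a point for each of the 21 arrays coloured by group. The MD arrays have the highest Ccl2 (13.01 to 14.42) at low microglia marker levels. Serum P7 replicate 3 (Cxcl12 13.44) lies beside the withdrawn P7 arrays (13.59 to 13.74), while the MD arrays (10.59 to 12.30) lie at the lowest mean log2 fibroblast and meningeal marker levels. By summed intensity of these markers the fresh P1 arrays (5311 to 13489) lay below the MD arrays (13860 to 17801).

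Ccl20, the ligand of Ccr6, was high in a different set of arrays. It read 9.24 and 8.41 in serum P7 replicates 1 and 2 but 5.77 in replicate 3, and 7.60, 6.99 and 7.63 in the withdrawn P7 cultures. Fresh P1 cells read 7.27, 6.80 and 6.22, and fresh P7 cells 7.21, 7.21 and 6.56. The lowest group means were those of the MD cultures (5.99, 5.33 and 5.46), HBEGF P7 cultures (5.86, 5.12 and 5.62) and HBEGF P1 cultures (5.43, 5.25 and 5.06). These 3 groups lay below every fresh and withdrawn array. Ccl20 was 2.27 ± 0.57 higher in serum P7 than in HBEGF P7 cultures (adjusted p = 0.00972), although replicate 3 lay among the HBEGF arrays. Without serum P7 replicate 1 the change was 1.55 (adjusted p = 0.0545). It was 2.21 ± 0.57 higher in serum P7 than in MD cultures (adjusted p = 0.00842), and 1.5 without serum P7 replicate 1 (adjusted p = 0.0511). It was 1.87 ± 0.57 higher in withdrawn P7 than in HBEGF P7 cultures (adjusted p = 0.0254), with no overlap. That call was lost without HBEGF P7 replicate 2 (1.66, adjusted p = 0.0883), withdrawn P7 replicate 1 (1.78, adjusted p = 0.0687) or withdrawn P7 replicate 3 (1.76, adjusted p = 0.077). Without serum P7 replicate 3, Ccl20 was also called higher in serum P7 than in fresh P7 cells (1.83, adjusted p = 0.00053) and lower in withdrawn P7 than in serum P7 cultures (-1.42, adjusted p = 0.0132). In all arrays those changes were 0.81 ± 0.57 (adjusted p = 0.292) and -0.40 ± 0.57 (adjusted p = 0.805). Without serum P7 replicate 1 they were 0.095 and 0.32, neither called. HBEGF P1 cultures did not overlap with fresh P1 cells (-1.52 ± 0.57, adjusted p = 0.0756), and with the replicate number as a block this change was called (adjusted p = 0.0378).

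Cxcl1, a neutrophil attractant, had the widest range of group means, 6.37. In the fresh P1 cells it read 10.89, 10.97 and 11.28, in the fresh P7 cells 11.60, 11.14 and 11.02, and in the MD cultures 12.64, 12.02 and 11.74. These arrays were the highest of all but for withdrawn P7 replicate 3 at 10.97. HBEGF P1 cultures read 6.66, 5.10 and 5.51 and HBEGF P7 cultures 7.56, 5.87 and 9.11. Serum P7 cultures read 8.43, 7.94 and 7.54 and withdrawn P7 cultures 9.76, 9.69 and 10.97. Of the 2 groups harvested from serum, the MD cultures were thus the highest group and the serum P7 cultures the third lowest. Cxcl1 fell by 5.29 ± 0.59 from fresh P1 cells to HBEGF P1 cultures (adjusted p = 7.44e-06). From fresh P7 cells to HBEGF P7 cultures it fell by 3.74 ± 0.59 (adjusted p = 0.000183), and the difference between the 2 responses was 1.55 ± 0.83 (adjusted p = 0.507). It was 6.37 ± 0.59 higher in MD than in HBEGF P1 cultures (adjusted p = 3.88e-07). The HBEGF P1 arrays of Cxcl1 lay below the median of all values, 7.11, and may be at background, so the size of both changes is uncertain. MD and fresh P1 cells did not overlap, but the change was 1.09 ± 0.59 (adjusted p = 0.164). Serum P7 cultures were lower than fresh P7 cells (-3.28 ± 0.59, adjusted p = 0.000309) and than MD cultures (-4.16 ± 0.59, adjusted p = 6.3e-05). Against HBEGF P7 cultures their change was 0.46 ± 0.59 (adjusted p = 0.626), and the difference between this and the MD change was -5.92 ± 0.83 (adjusted p = 0.000273). Cxcl1 was higher in withdrawn P7 cultures than in HBEGF P7 cultures (2.63 ± 0.59, adjusted p = 0.00415). The call was kept whichever array was left out and lost with only these 2 groups in the fit (adjusted p = 0.0906).

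Cxcl1 was also higher in withdrawn P7 than in serum P7 cultures (2.17 ± 0.59, adjusted p = 0.0329), with no overlap. Each of the 6 arrays, left out in turn, ended that call, with changes between 1.75 and 2.40. The adjusted p was 0.0591, 0.11 and 0.0806 without serum P7 replicates 1, 2 and 3, and 0.061, 0.06 and 0.118 without withdrawn P7 replicates 1, 2 and 3. Between HBEGF P7 and HBEGF P1 cultures the Cxcl1 change of 1.76 ± 0.59 (adjusted p = 0.2) was called only without HBEGF P7 replicate 2 (2.58, adjusted p = 0.0123). The highest HBEGF P7 array, replicate 3, had the highest mean microglia (7.90), fibroblast and meningeal (11.36), endothelial (6.37) and neuron (8.97) marker levels of its group, and their part in its level was not tested. In that group replicate 3 was also the highest array of Ccl2, Ccl7 and Cxcl12.

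Cxcl2, the other neutrophil attractant described here and the neighbour of Cxcl1, was highest in the fresh cells. It read 10.18, 7.60 and 8.15 in the fresh P7 cells and 5.70, 7.30 and 7.58 in the fresh P1 cells. Fresh P7 replicate 1 was the highest array of its group for 7 of the 8 members, all but Cx3cl1. It also had the most microglia marker signal (a mean of 7.67 against 6.83 and 7.11), and the array order of Cxcl2 in that group was that of the microglia markers, whose part in it was not tested. The MD cultures read 6.22, 5.76 and 5.44, so that they overlapped with the fresh P1 cells. HBEGF P1 cultures (4.70, 4.96 and 5.03), HBEGF P7 cultures (4.56, 5.14 and 5.10), serum P7 cultures (4.95, 4.71 and 5.05) and withdrawn P7 cultures (4.82, 5.11 and 5.67) had group means between 4.90 and 5.20. Cxcl2 fell by 3.71 ± 0.52 from fresh P7 cells to HBEGF P7 cultures (adjusted p = 6.04e-05). Serum P7 cultures (-3.74 ± 0.52, adjusted p = 2.58e-05) and withdrawn P7 cultures (-3.45 ± 0.52, adjusted p = 4.92e-05) were lower than the same fresh P7 arrays. From fresh P1 cells to HBEGF P1 cultures it fell by 1.96 ± 0.52 (adjusted p = 0.0123). Without replicate 2 of the fresh P1 cells the change was -1.74 (adjusted p = 0.0566) and without replicate 3 it was -1.60 (adjusted p = 0.0669), both short of a call. The fresh P7 arrays did not overlap with the fresh P1 arrays (1.79 ± 0.52, adjusted p = 0.0749), and the change was called without fresh P7 replicate 2 (2.31, adjusted p = 0.0286). Without fresh P7 replicate 1 it was 1.02 and not called. Against fresh P1 cells the MD change of -1.05 ± 0.52 (adjusted p = 0.128) was called without fresh P1 replicate 1 (-1.63, adjusted p = 0.0216). Without fresh P1 replicate 3 it was -0.69 and not called. Where Cxcl1 was higher, in MD against HBEGF P1 and withdrawn P7 against serum P7 cultures, the Cxcl2 changes were 0.91 ± 0.52 (adjusted p = 0.185) and 0.30 ± 0.52 (adjusted p = 0.847). Cxcl3, another neutrophil attractant that is not among the 8, was 3.27 higher in MD than in HBEGF P1 cultures (adjusted p = 1.19e-09) and lower in serum P7 than in MD cultures (-3.11, adjusted p = 6.58e-09).

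The fresh cells also had the highest immediate-early gene signal. The 20 measured immediate-early genes summed to 164934 to 212698 in the fresh arrays and to 15182 to 30313 in the cultures. Of these genes 18 of 20 were lower in HBEGF P1 than in fresh P1 cells (8.87% of all genes called). In HBEGF P7 cultures 19 of 20 were lower than in fresh P7 cells (10.3% of all genes called). Of the NF-kB list, the feedback genes Nfkbiz (-4.47), Tnfaip3 (-3.52) and Nfkbia (-3.01) fell from fresh P1 cells to HBEGF P1 cultures together with Cxcl1 and Cxcl2. Cxcl1 was high in the MD cultures, where 17 of 20 immediate-early genes were lower than in fresh P1 cells (19.6% of all genes called). The part of the immediate-early signal in the Cxcl1 and Cxcl2 levels was not tested.

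Cxcl10, which draws T cells and is induced by interferon, was lowest in the HBEGF P1 cultures, at 5.72, 5.30 and 6.03. All other arrays were higher. Fresh P1 cells read 6.20, 7.14 and 6.90, fresh P7 cells 7.94, 6.87 and 6.98, and HBEGF P7 cultures 8.18, 7.23 and 7.96. MD cultures read 8.63, 7.94 and 8.06, serum P7 cultures 8.86, 8.69 and 7.69, and withdrawn P7 cultures 10.04, 9.11 and 7.53. From the HBEGF P7 cultures upward in the order of means, neighbouring groups overlapped. Cxcl10 was 2.52 ± 0.50 higher in MD than in HBEGF P1 cultures (adjusted p = 0.000719). Its difference of 1.46 ± 0.50 between MD and fresh P1 cells (adjusted p = 0.029) was not called without fresh P1 replicate 1 (1.19, adjusted p = 0.123), MD replicate 1 (1.25, adjusted p = 0.105) or MD replicate 3 (1.53, adjusted p = 0.0527). Withdrawn P7 cultures were 1.63 ± 0.50 above fresh P7 cells with overlap (adjusted p = 0.0143). Without fresh P7 replicates 2 or 3 or withdrawn P7 replicate 1 that was 1.43, 1.48 and 1.05 (adjusted p = 0.0546, 0.0534 and 0.0939). HBEGF P7 was 2.10 ± 0.50 above HBEGF P1 (adjusted p = 0.0466), and this was lost on leaving out any 1 of 5 of the 6 arrays. Those were HBEGF P1 replicate 1 (adjusted p = 0.12), 2 (0.227) or 3 (0.0719) and HBEGF P7 replicate 1 (0.118) or 3 (0.106), with changes of 1.91 to 2.28. Between serum P7 and fresh P7 the change of 1.15 ± 0.50 (adjusted p = 0.0832) was called without fresh P7 replicate 1 (1.48, adjusted p = 0.0475) or serum P7 replicate 3 (1.51, adjusted p = 0.0421). Without serum P7 replicate 1 it was 0.92 and not called. Between withdrawn P7 and HBEGF P7 the Cxcl10 change was 1.10 ± 0.50 (adjusted p = 0.118), and 1.78 without withdrawn P7 replicate 3 (adjusted p = 0.0102). Without withdrawn P7 replicate 1 it was 0.53 (adjusted p = 0.465).

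Cxcl12, the ligand of Cxcr4, was highest in the withdrawn P7 cultures, at 13.74, 13.68 and 13.59, with a SD of 0.07. On the lead probe set no array of another group reached these values. The serum P7 cultures read 9.71, 10.40 and 13.44, so that replicate 3 came close, and the HBEGF P7 cultures 10.28, 9.44 and 12.80, where again replicate 3 was high. Fresh P1 cells read 8.59, 9.93 and 9.28, fresh P7 cells 10.97, 9.93 and 9.62, HBEGF P1 cultures 10.19, 9.52 and 11.01, and MD cultures 10.59, 12.30 and 11.95. The order of the arrays within a group was that of the mean fibroblast and meningeal marker level in 5 of 7 groups and that of the mean astrocyte marker level in 6 of 7. Cxcl12 was 3.50 ± 0.86 higher in withdrawn P7 than in fresh P7 cells (adjusted p = 0.00341). The other probe sets of Cxcl12 gave 2.73 (1388583_at, adjusted p = 0.00452) and 6.11 (1387655_at, adjusted p = 0.00115) in that comparison. The withdrawn P7 change against HBEGF P7 was 2.83 ± 0.86 (adjusted p = 0.0243) and was lost without HBEGF P7 replicate 1 (2.55, adjusted p = 0.0792) or 2 (2.13, adjusted p = 0.116) or withdrawn P7 replicate 1 (2.79, adjusted p = 0.0577), 2 (2.82, adjusted p = 0.0606) or 3 (2.87, adjusted p = 0.0571). The 2 other probe sets gave 1.22 (adjusted p = 0.217) and 5.06 (adjusted p = 0.00987) there. On 1387655_at the withdrawn P7 arrays (12.42 to 12.75) again lay above all others. On 1388583_at they read 12.16, 12.41 and 11.13, with a SD of 0.68. Replicate 3 lay below replicate 3 of the HBEGF P7 (11.69) and serum P7 cultures (11.66) on that probe set.

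On the lead probe set of Cxcl12, withdrawn P7 cultures did not overlap with serum P7 cultures, and the change was 2.49 ± 0.86 (adjusted p = 0.0938). Without serum P7 replicate 3 it was 3.62 (adjusted p = 0.00623), and without serum P7 replicate 1 it was 1.75 and not called. The other probe sets gave 2.45 (adjusted p = 0.042) and 3.92 (adjusted p = 0.0813), so that 1 of the 3 was called. The microglia and macrophage list moved in the same comparison. Of its 18 markers, 12 were higher in withdrawn P7 than in serum P7 cultures (4.5% of all genes called). Against HBEGF P7 cultures 10 of 18 were higher (11.7% of all genes called). In the fibroblast and meningeal list limma called 0 of 12 markers between withdrawn P7 and serum P7 cultures, with 5 at an unadjusted p under 0.05. Against fresh P7 cells 11 of 12 were higher in withdrawn P7 cultures (22.1% of all genes called). The part of either list in the Cxcl12 level was not tested. Cxcl12 was 2.34 ± 0.86 higher in MD than in fresh P1 cells (adjusted p = 0.0407). That call was lost without fresh P1 replicate 1 (2.01, adjusted p = 0.138) or 3 (2.35, adjusted p = 0.0802) or MD replicate 2 (2.00, adjusted p = 0.128) or 3 (2.18, adjusted p = 0.107), and the other probe sets gave 1.79 (adjusted p = 0.0537) and 2.14 (adjusted p = 0.218). On the lead probe set the changes between serum P7 and HBEGF P7 (0.34 ± 0.86, adjusted p = 0.82) and between HBEGF P1 and fresh P1 (0.97 ± 0.86, adjusted p = 0.522) were within the spread between arrays. For the first, 1388583_at gave -1.23 (adjusted p = 0.232) and 1387655_at 1.14 (adjusted p = 0.577). For the second, 1388583_at gave 1.64 with no overlap (adjusted p = 0.119) and 1387655_at 0.54 (adjusted p = 0.852).

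Cx3cl1, or fractalkine, was lowest in the cultures harvested from serum. It read 9.65, 9.90 and 9.64 in the fresh P1 cells, 9.40, 9.82 and 9.89 in the fresh P7 cells, and 9.49, 9.47 and 10.09 in the withdrawn P7 cultures. HBEGF P1 cultures read 9.22, 8.76 and 8.73 and HBEGF P7 cultures 8.94, 10.46 and 8.69. The serum P7 cultures (8.54, 8.23 and 8.71) and MD cultures (6.78, 7.17 and 6.85) were the 2 lowest groups. They did not overlap with each other, and among the other groups only HBEGF P7 replicate 3 lay within the serum P7 range. Cx3cl1 fell by 2.80 ± 0.33 from fresh P1 cells to MD cultures (adjusted p = 3.69e-06) and was lower in MD than in HBEGF P1 cultures (-1.97 ± 0.33, adjusted p = 0.00016). It was lower in serum P7 than in fresh P7 cells (-1.21 ± 0.33, adjusted p = 0.00803) and 1.56 ± 0.33 higher in serum P7 than in MD cultures (adjusted p = 0.00188). These 4 calls were kept whichever array was left out. Against HBEGF P7 cultures the serum P7 change was -0.87 ± 0.33 (adjusted p = 0.0708), and -1.21 without HBEGF P7 replicate 3 (adjusted p = 0.0145). Without HBEGF P7 replicate 2, the highest array of that group at 10.46, it was -0.32 (adjusted p = 0.347). Withdrawal of serum was followed by a level 1.19 ± 0.33 higher (adjusted p = 0.036), with no overlap. That call was lost without serum P7 replicate 1 (1.21, adjusted p = 0.0937) or 2 (1.05, adjusted p = 0.156) or withdrawn P7 replicate 1 (1.28, adjusted p = 0.0679), 2 (1.29, adjusted p = 0.069) or 3 (0.99, adjusted p = 0.121). The withdrawn P7 cultures were within the spread of the fresh P7 cells (-0.02 ± 0.33, adjusted p = 0.965). The MD cultures also had the lowest summed astrocyte marker signal, 66853 to 80304 against 111884 and above in every other group, and the part of that in the Cx3cl1 level was not tested.

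Of the receptors, those for the leukocyte attractants gave low values that varied little between groups. Ccr2 averaged 4.07 to 4.20, Ccr6 4.67 to 5.11, Cxcr2 4.62 to 5.10 and Cxcr3 4.63 to 5.11. Cx3cr1, the microglial fractalkine receptor, averaged 6.16 to 6.71, also in the withdrawn P7 cultures with their high microglia signal. All these means lay below the median of all log2 values, 7.11. They may be at background, where a change would not show. The receptors of Cxcl12 differed between groups. Cxcr4 averaged 10.93 to 11.18 in fresh and HBEGF cells, 9.23 in MD cultures, 9.61 in serum P7 cultures and 10.85 in withdrawn P7 cultures. The withdrawn P7 arrays were scattered (9.11 to 11.74, SD 1.51), and the lowest lay within the serum P7 range (9.03 to 9.97). Cxcr4 was lower in MD than in HBEGF P1 cultures (-1.93, adjusted p = 0.00656) and in serum P7 than in HBEGF P7 cultures (-1.56, adjusted p = 0.0373). Ackr3, the scavenging receptor, averaged 6.47 in MD and 8.23 in serum P7 cultures and 8.79 to 9.73 elsewhere. It was lower in MD than in HBEGF P1 cultures (-2.74, adjusted p = 0.000101) and higher in withdrawn P7 than in serum P7 cultures (1.5, adjusted p = 0.0451). Of the 17 receptors measured, 3 were lower and 0 higher in MD than in HBEGF P1 cultures, with a median change of 0.15. That is 17.6% of the receptors, beside 18.4% of all genes called there.

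Of the other chemokine ligands, 2 of 23 were higher and 0 lower in MD than in HBEGF P1 cultures (Cxcl3 and Cxcl6). That is 8.7% of them, beside 18.4% of all genes called there. The median change of the 23 was 0.17, beside 1.95 for the members and 0.09 for all genes. After serum withdrawal 6 of 23 were higher than in serum P7 cultures and 1, Cxcl14, was lower (-1.18, adjusted p = 0.0174). In that comparison 4.5% of all genes were called. Among those higher were the macrophage ligands Ccl4 (2.71, adjusted p = 0.00608), Ccl3 (2.02, adjusted p = 0.0302) and Pf4 (2.65, adjusted p = 0.0401), and Cxcl16 (1.51, adjusted p = 0.0203). Ccl3 and Ccl4 were also lower in HBEGF P1 than in fresh P1 cells (-2.11, adjusted p = 0.00948, and -1.60, adjusted p = 0.0485). From fresh P7 cells to HBEGF P7 cultures Ccl4 (-2.71, adjusted p = 0.00156) and Ccl3 (-2.61, adjusted p = 0.00184) were lower, as Cxcl1 and Cxcl2 were. Of the 23 ligands, Xcl1 was also lower there (-1.05, adjusted p = 6.56e-05) and Cxcl16 was higher (1.72, adjusted p = 0.00272).

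Genes of NF-kB signalling and its feedback were called in several of these comparisons, given here with the share of all genes called in brackets. Of 18 measured, 4 were lower and 0 higher in HBEGF P1 than in fresh P1 cells (8.87%). In HBEGF P7 cultures 4 were lower and 0 higher than in fresh P7 cells (10.3%). Serum P7 against HBEGF P7 cultures had 2 lower and 0 higher (9.3%). MD against HBEGF P1 cultures had 3 higher and 2 lower (18.4%). The inhibitors Tnfaip3 (1.57, adjusted p = 0.000189), Tnip1 (1.34, adjusted p = 6.23e-06) and Nfkbia (1.04, adjusted p = 0.0131) were higher in MD than in HBEGF P1 cultures, while the adhesion molecule Vcam1 (-2.82, adjusted p = 5.07e-08) and Relb (-1.01, adjusted p = 0.00102) were lower. After serum withdrawal 6 of 18 were higher than in serum P7 cultures and 0 lower (4.5%). They were led by Vcam1 (2.40, adjusted p = 1.11e-05), Tnfaip3 (1.75, adjusted p = 0.000902), Birc3 (1.56, adjusted p = 0.000262) and Nfkbiz (1.34, adjusted p = 0.00774). Against HBEGF P7 cultures 4 of 18 were higher and 0 lower (11.7%), led by Icam1 (2.09, adjusted p = 5.94e-05).

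Of the upstream cytokines and their receptors, 4 of 20 were higher and 1, Il33, was lower (-1.48, adjusted p = 0.0374) in MD than in HBEGF P1 cultures. These calls made 25% of the 20 genes, beside 18.4% of all genes. The highest was Il1rap, the shared chain of the interleukin-1 receptor (3.12, adjusted p = 3.55e-07), followed by Il18 (2.20, adjusted p = 0.00194), Il6r (1.74, adjusted p = 1.91e-05) and Il1r1 (1.63, adjusted p = 0.0011). Il1rap and Il1r1 were also higher in serum P7 than in HBEGF P7 cultures (2.08, adjusted p = 9.04e-05, and 1.16, adjusted p = 0.022). The changes of Ccl2 (2.10 ± 1.16) and Cxcl1 (0.46 ± 0.59) were not called there. Leaving out any single array did not call Ccl2 there. It was called higher (4.22, adjusted p = 0.0196) only without replicate 3 of both groups, an alternative chosen after seeing the data. Those were the highest HBEGF P7 array of Ccl2 (10.65) and its lowest serum P7 array (8.51). Dropping them widens the difference. Il1b was higher in withdrawn P7 than in serum P7 cultures (1.85, adjusted p = 0.00553). Of 22 interferon response genes beside Cxcl10, 9 were higher and 0 lower in withdrawn P7 than in HBEGF P7 cultures (11.7% of all genes called). Among them were Rsad2 (2.17), Gbp2 (2.14), Irf7 (2.10) and Mx1 (1.96). Between MD and HBEGF P1 cultures, where Cxcl10 was 2.52 higher, 1 of 22 was higher (Gbp2, 2.31, adjusted p = 0.00153) and 1 lower (Stat2, -1.0, adjusted p = 0.00133). These calls made 9.09% of the 22 genes, beside 18.4% of all genes. The part of interleukin-1 or interferon signals in the chemokine levels was not tested.

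Of 6 genes of chemokine shedding and cleavage, Dpp4, the peptidase that trims Cxcl12 and Cxcl10, was higher in withdrawn P7 than in serum P7 (1.99, adjusted p = 0.000156) and HBEGF P7 cultures (2.31, adjusted p = 1.02e-05). Mmp2, which cleaves Ccl7 and Cxcl12, was higher in serum P7 than in HBEGF P7 cultures (1.65, adjusted p = 0.0029). The fractalkine sheddases Adam10 and Adam17 averaged 7.55 to 9.13 and 10.19 to 10.97, and neither was called in any of the comparisons.

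**Figure D4:**
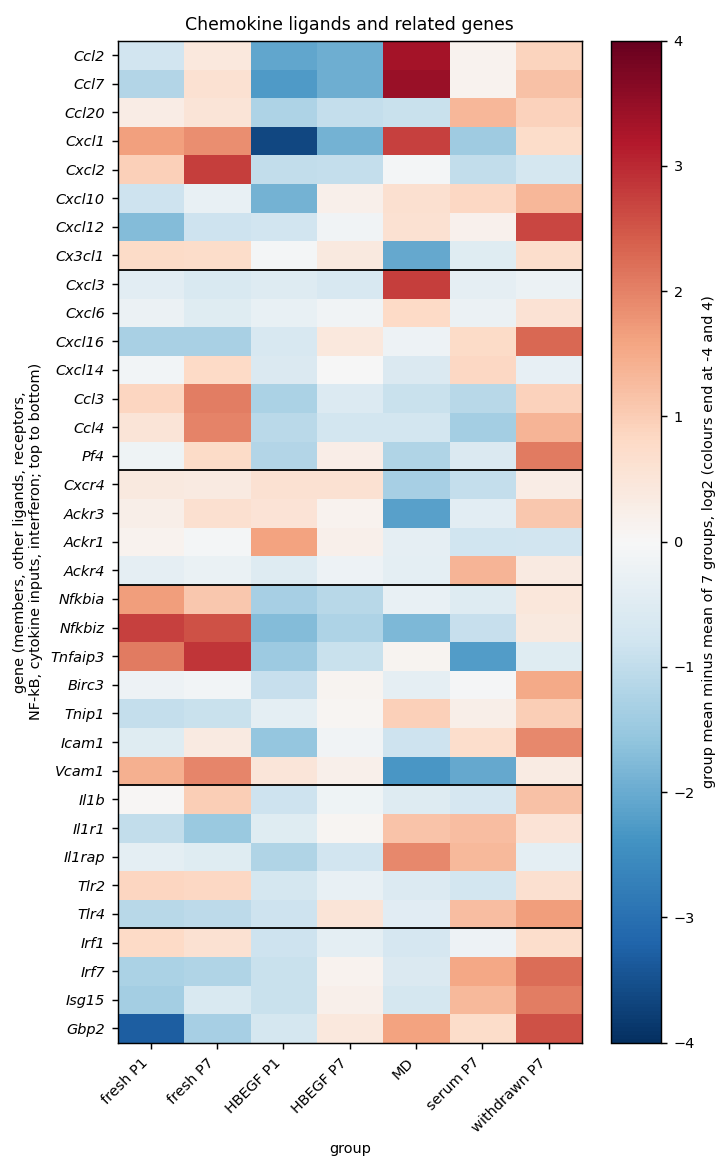
Mean log2 intensity of each of the 7 groups minus the mean of all 7, for the 8 chemokine ligands and 27 related genes in rows (other ligands, receptors, NF-kB, cytokine inputs and interferon genes, top to bottom), with groups in columns, red above and blue below that mean. Ccl2, Ccl7, Cxcl1 and Cxcl3 are red in the MD column, where Ackr3 and Vcam1 are blue, and Nfkbiz and Tnfaip3 are red in both fresh columns.

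The genes whose 7 group means lay nearest to those of a member, each centred on its own mean, were sought among 7104 genes at or above the median level. For Ccl2 these were Sgk1 (root mean square difference 0.78), Errfi1 (0.85) and Cd44 (0.86), and for Ccl7 the same 3 genes with Sgk1 first (0.86). Klf2 was nearest to Cxcl1, at 0.98, then Plk2 (1.27) and Ccn1 (1.28). For Cxcl2, Rasl11b (0.35), Slc25a25 (0.38) and Fry (0.42) were nearest, and for Ccl20 Dcxr (0.18), Srpx (0.32) and Col4a5 (0.36). Cxcl10 was nearest to Ctsz (0.35), Frmd6 (0.37) and Uaca (0.41). Cxcl12 was nearest to Abhd14b (0.51), Tmem176a (0.51) and Cxcl16 (0.53), and Cx3cl1 to Tmcc3 (0.23), Tspan9 (0.28) and Plpp3 (0.28). These are likenesses over 7 groups of these arrays, chosen for that, and carry no test.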

How the data were processed

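The authors deposited 1 intensity for each probe set on each array. RMA is named in the submitters' processing notes. Its program and probe annotation, not given in the sources used here, could change low values. The intensities ran from 10.0 to 37801 on a linear scale, and log2 of them was taken. No detection calls were used, so a low value may be background. Genes were named from GEO's platform annotation: 20826 probe sets carried 1 symbol, 436 several and 9780 none. limma 3.58.1 in R 4.3.3 fitted 7 group means to 21 arrays, with 14 residual and 2.89 prior degrees of freedom. The fit was tested on simulated data. The members, gene lists, comparisons and alternatives were chosen with earlier results of these data known. Members were always named, and of each related list up to 4 called genes with the largest change in a described comparison. Cxcl3 and Cxcl6 fall under that rule. Probe sets of related chemokines may share targets, which was not tested.

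Arrays of the same replicate number were checked for pairing by the correlation of their deviations from the group means. In 5 of 12 comparisons all 3 correlations exceeded 0.1 (HBEGF P1 with fresh P1, HBEGF P7 with HBEGF P1, MD with fresh P1, MD with HBEGF P1, withdrawn P7 with serum P7), and over all 12 they ran from -0.18 to 0.59. Alternatives were quantile normalization, median centring, eBayes with trend and robust, the replicate number as a block, 16 added before log2, dim probe sets left out, the mean of all probe sets of a member, only the groups compared, and each array left out in turn. The number of arrays limits the precision.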

Additional observations from a re-analysis of the deposited data

Results flagged for a closer look

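Cxcl1 was picked out because its change from HBEGF to serum in panned P7 cells differed from its change from HBEGF P1 to MD cultures. This was a test of the difference itself, named below the difference between the serum responses. MD and HBEGF P1 cultures differed in isolation as well as in medium, so their change is not a response to serum alone. It was 6.37 higher in MD than in HBEGF P1 cultures and 0.46 higher in serum P7 than in HBEGF P7 cultures, and the difference between the 2 changes was -5.92 ± 0.83 (log2, limma adjusted p = 0.000273). All 3 MD arrays lay above all 3 HBEGF P1 arrays, while the serum P7 and HBEGF P7 arrays overlapped. The HBEGF P1 arrays (5.10 to 6.66) lay below the median of all values, 7.11, and may be at background. The sizes of 6.37 and -5.92 are therefore uncertain. MD cultures and serum P7 cultures differed in the age of the rats and in the isolation of the cells as well, which cannot be told apart.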

How the results depend on the processing

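No called change of a member reversed under any alternative that gave a value. Of 33 calls of members, 20 were kept whichever single array was left out, 25 under every other alternative that gave a value, and 19 under both. For 5 of the 25, calls of Cxcl2 and Ccl20, leaving out dim probe sets gave no value. Leaving out 1 array at a time moved the count of members called over these ranges: 0 to 1 for fresh P7 against fresh P1, 1 to 2 for HBEGF P1 against fresh P1, 2 to 3 for HBEGF P7 against fresh P7, 0 to 2 for HBEGF P7 against HBEGF P1, 3 to 5 for MD against fresh P1, 5 to 5 for MD against HBEGF P1, 0 to 3 for serum P7 against HBEGF P7, 3 to 5 for serum P7 against fresh P7, 0 to 3 for withdrawn P7 against serum P7, 1 to 5 for withdrawn P7 against HBEGF P7, 2 to 3 for withdrawn P7 against fresh P7, 3 to 4 for serum P7 against MD, 0 to 0 for the difference between the HBEGF responses and 1 to 3 for that between the serum responses. With only the groups compared in the fit, the count was 4 for HBEGF P1 against fresh P1, 0 for HBEGF P7 against HBEGF P1, 0 for serum P7 against HBEGF P7, 1 for withdrawn P7 against HBEGF P7 and 2 for the difference between the serum responses. Fewer arrays then set the spread. That fit ended the calls of Ccl7 (adjusted p = 0.073), Cxcl1 (0.0906) and Cxcl12 (0.0758) in withdrawn P7 against HBEGF P7, of Cxcl10 in withdrawn P7 against fresh P7 (0.0724), and of Ccl20 in serum P7 against MD (0.105) and against HBEGF P7 (0.152), and of Cxcl10 in HBEGF P7 against HBEGF P1 (0.18). It added Ccl20 (0.00827) and Cxcl10 (0.039) in HBEGF P1 against fresh P1, Ccl20 in HBEGF P7 against fresh P7 (0.0163), Ccl2 in serum P7 against MD (0.0401), Ccl20 (0.0189) and Cxcl1 (0.0113) in MD against fresh P1, Cxcl1 in withdrawn P7 against fresh P7 (0.0418), and Cxcl10 for the difference between the serum responses (0.0377). With the mean of all its probe sets, Cxcl12 was not called in MD against fresh P1 (0.0754). Leaving out dim probe sets dropped Ccl20 and Cxcl2, which had no value there, and gave counts of 1 for HBEGF P1 against fresh P1 and 0 for serum P7 against HBEGF P7. Quantile normalization and 16 added before log2 each gave 0 for HBEGF P7 against HBEGF P1, where Cxcl10 was near the threshold. The cause was not tested. With the replicate block, 4 members were lower in HBEGF P7 than in fresh P7 cells, Ccl7 (adjusted p = 0.0354) and Ccl20 (0.0408) in addition, although these groups were not paired by the check. The block also called Ccl2 lower in serum P7 than in MD cultures (adjusted p = 0.0308) and Ccl20 in HBEGF P1 against fresh P1, and changed no other call. An alternative chosen after seeing the data left out HBEGF P7 replicate 3 (highest of its group on microglia markers) and serum P7 replicate 3 (highest on fibroblast and meningeal markers) together. HBEGF P7 replicate 2, which stood apart on the fibroblast and meningeal markers, was kept. The 2 arrays left out were also the highest HBEGF P7 and the lowest serum P7 array of Ccl2 and Ccl7, so dropping them widens those differences. This alternative gave 5 members for HBEGF P7 against fresh P7, 0 for HBEGF P7 against HBEGF P1, 4 for serum P7 against HBEGF P7 (Ccl2, Ccl7 and Ccl20 higher, Cx3cl1 lower), 5 for serum P7 against fresh P7, 4 for withdrawn P7 against serum P7 and 2 for the difference between the serum responses. With 3 arrays per group and no signal over background in the table, low values of Ccl20, Cxcl2, the receptors and Cxcl1 in the HBEGF cultures are the least certain.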
